A study of Mus musculus with 4 samples.

Results

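The 10 genes described here control or mark ferroptosis and the antioxidant programme of the transcription factor NRF2: Slc7a11, Gpx4, Acsl4, Aifm2, Nqo1, Gclc, Gclm, Txnrd1, Srxn1 and Nfe2l2. They were chosen by name for their roles in these pathways, with earlier results of these data known, and all 10 were found among the 17574 genes of the series. The samples were subcutaneous tumours in C3H/HeN mice, formed by injected SCC7 cells, a mouse carcinoma line labelled as wild type and as a head and neck squamous carcinoma. The 2 control libraries and the 2 anti-CD71 libraries came from tumours taken on day 10, and the treatment was an antibody to the transferrin receptor, CD71, given on days 6 and 9. No control antibody is named in the labels, so what the controls received is not given in the sources used here. The labels do not say whether each library is 1 mouse or a pool, so the tests below measure the spread between these libraries.

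Ferroptosis is a form of cell death in which iron drives the oxidation of membrane lipids. The transporter SLC7A11 imports cystine, GCLC and GCLM form the enzyme that starts glutathione synthesis, and GPX4 uses glutathione to repair lipid peroxides. AIFM2 (FSP1) keeps coenzyme Q reduced as a separate defence, while ACSL4 loads membranes with the polyunsaturated fatty acids that oxidise most readily. NRF2, encoded by Nfe2l2, is held at low levels by KEAP1 and, when released, binds antioxidant response elements near genes such as Nqo1, Gclc, Gclm, Txnrd1, Srxn1 and Slc7a11.

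The core of that element, TGACNNNGC, was searched on both strands of RefSeq promoter windows of GRCm38.p6, each running from 250 bases before to 50 after an annotated start. It lay in a window of 4 of the 9 genes that had one (Gclm, Txnrd1, Srxn1 and Nfe2l2), against 13.99% of all 27025 genes with a window. These shares are not like for like. Several of the 10 genes were chosen as NRF2 targets, and some genes have more windows than others (32851 windows in all). No match was found in the windows of Slc7a11, Gpx4, Acsl4, Aifm2 and Nqo1, which says only that these letters are not in these windows, and Gclc had no window. The stretches of all 4 genes with a match are shown, whatever their expression, and none of the 10 genes passed the test described below. Capitals mark the match, which on the gene's own strand reads as the reverse complement in Gclm, Txnrd1 and Srxn1. For Gclm (chr3:122245307-122245556, plus strand), Txnrd1 (chr10:82858956-82859205, plus strand) and Nfe2l2 (chr2:75704664-75704913, minus strand) the 250 bases before the start are given, and for Srxn1 the 30 bases around the match (chr2:152105542-152105571, plus strand), which lies after the start.
Gclm: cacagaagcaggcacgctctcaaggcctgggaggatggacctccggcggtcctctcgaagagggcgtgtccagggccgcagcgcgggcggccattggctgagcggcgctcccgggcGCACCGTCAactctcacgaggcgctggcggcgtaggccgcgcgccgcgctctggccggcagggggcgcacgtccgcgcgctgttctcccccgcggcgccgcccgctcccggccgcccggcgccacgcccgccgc
Txnrd1: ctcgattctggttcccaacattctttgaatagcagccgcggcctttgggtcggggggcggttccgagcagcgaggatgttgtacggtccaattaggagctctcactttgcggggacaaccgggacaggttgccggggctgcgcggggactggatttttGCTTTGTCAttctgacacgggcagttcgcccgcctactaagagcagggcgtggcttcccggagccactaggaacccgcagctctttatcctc
Nfe2l2: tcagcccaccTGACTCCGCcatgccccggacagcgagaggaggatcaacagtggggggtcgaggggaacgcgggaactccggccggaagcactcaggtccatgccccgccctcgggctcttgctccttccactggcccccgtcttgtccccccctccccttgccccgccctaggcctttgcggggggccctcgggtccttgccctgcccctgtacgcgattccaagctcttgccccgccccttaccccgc
Srxn1: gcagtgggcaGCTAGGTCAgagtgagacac
A match is a description of the letters and not evidence of binding.

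Values are TPM, a transcript abundance scaled for length and to a fixed total per library, so levels can be compared between genes. The TPM of a gene's RefSeq transcripts were added. For anti-CD71 replicate 1, the file analysed here ends inside a line after 13586 of 59881 transcripts, and a transcript beyond that point is missing and not 0. It lists all transcripts of Nqo1 and Srxn1, some transcripts of Gpx4, Acsl4, Aifm2, Gclm and Txnrd1, and none of Slc7a11, Gclc and Nfe2l2. Whole genes were therefore compared between anti-CD71 replicate 2 and the 2 controls, and listed transcripts between all 4 libraries. Without replicate 2 there is no whole-gene value for the treated group other than for fully listed genes. The read depth is unknown.

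The libraries differed in their cell type markers. The summed TPM of 15 epidermis and hair markers was 0.2 and 0.1 in the 2 controls but 238.1 in anti-CD71 replicate 2, and every one of the 15 was under 0.1 TPM in both controls. For the 3 of these markers with most of their TPM listed for replicate 1, the sum was 0.0 in replicate 1 and 64.3 in replicate 2. The 12 macrophage markers summed to 7227.8 and 9236.0 TPM in the 2 controls, against 3826.0 TPM in replicate 2, and 9 of the 12 passed the test (8 lower, 1 higher). Of the 12 squamous markers used to check the label, Krt5 was listed at 0 TPM in both controls and Krt14 at 0.09 and 0.1 TPM (31.4 and 36.37 TPM in replicate 2), while the simple epithelial keratin Krt8 stood at 1132.27 and 1202.77 TPM. The integrin genes of that list were also expressed in controls, Itgb4 at 93.68 and 87.43 TPM and Itga6 at 44.58 and 47.12 TPM. Krt18 stood at 657.36 and 680.49 TPM in controls, against 893.37 TPM in replicate 2. Sfn was at 2.74 and 2.53 TPM in controls, against 19.35 TPM in replicate 2. Of the 6 squamous markers tested in that library, 4 had a log2 change above 0 and 2 below. In bulk tumour RNA, fewer cells of a type and less RNA per cell cannot be told apart, and the part of these shifts in the values below was not tested.

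**Figure D1:**
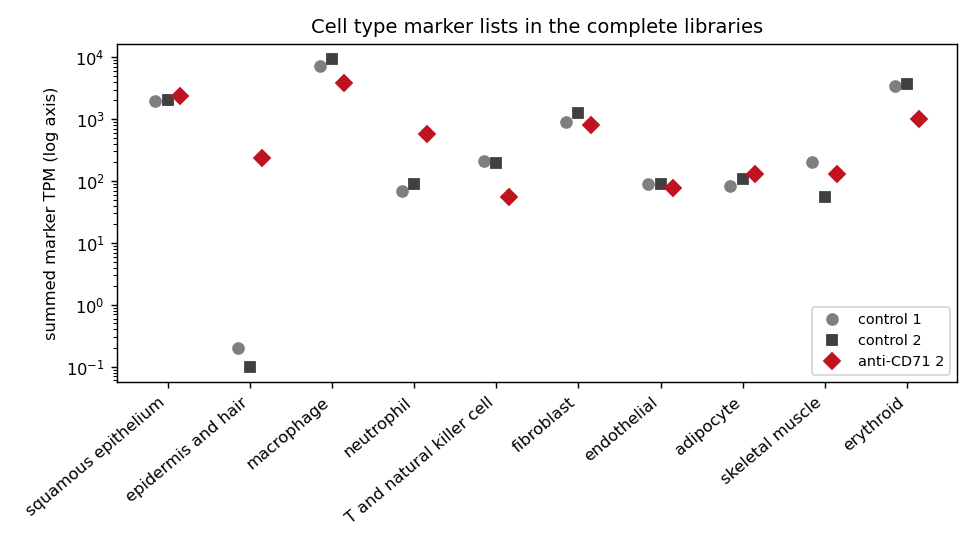
Summed TPM (log axis) of each cell type marker list, with 1 point for each of the 3 complete libraries. Epidermis and hair markers sum to 0.2 and 0.1 in controls, against 238.1 in anti-CD71 replicate 2. Macrophage, T and natural killer cell, fibroblast, endothelial and erythroid sums are lower in that library than in both controls. Squamous, neutrophil and adipocyte sums are higher than in both, and the skeletal muscle sum lies between them.

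None of the 10 genes passed the test in anti-CD71 replicate 2 against the controls (limma, Benjamini-Hochberg adjusted p under 0.05; 2.86% of 11982 tested genes passed). Gclm and Txnrd1 were measured higher and Nfe2l2 lower by more than the controls differed, with unadjusted p under 0.05 for these 3 of 10 genes, a share close to the 24.7% of all tested genes. The 10 genes had a median log2 change of 0.09, and all tested genes had -0.01. All log2 changes were computed from log2(TPM + 1), so those of weakly expressed genes are too small. Of the 10 genes, 5 lay above both controls in replicate 2 (39.5% of tested genes did), 2 lay below both (42.5% did), and Slc7a11, Acsl4 and Nqo1 lay between them.

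Control levels of the 10 genes ranked above between 35.3% (Gclm) and 98.3% (Gpx4) of tested genes. Gpx4 was the highest of them in controls, at a mean of 649.71 TPM. Txnrd1 (134.48 TPM), Nfe2l2 (108.82 TPM) and Srxn1 (86.86 TPM) followed, and the control values of these 3 did not overlap with each other. Acsl4 (43.22 TPM), Aifm2 (28.18 TPM) and Slc7a11 (22.61 TPM) came next, again without overlap. Gclc, Nqo1 and Gclm were the lowest, at 14.2, 13.82 and 13.1 TPM, and their control values overlapped, so their order is not resolved.

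**Figure D2:**
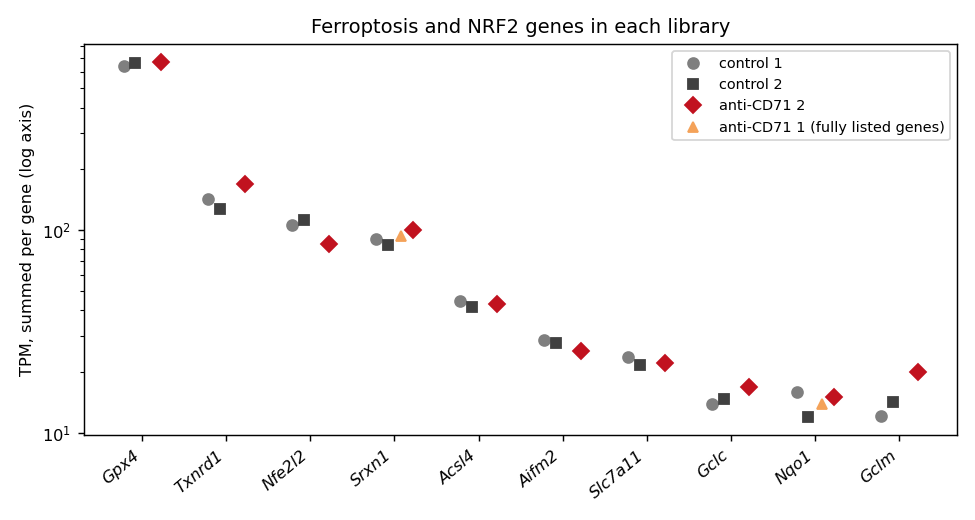
TPM per gene (log axis) in control 1, control 2 and anti-CD71 2, with anti-CD71 1 for Nqo1 and Srxn1, whose transcripts are all listed for it. Gpx4 lies between 639.29 and 672.39 TPM in the complete libraries, and the anti-CD71 2 point is separated from both controls most clearly for Gclm (above) and Nfe2l2 (below).

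Among the glutathione synthesis genes, Gclm was higher in anti-CD71 replicate 2 than in both controls, short of the threshold. Gclm, the modifier subunit that makes the glutamate-cysteine ligase efficient, lies on chromosome 3 from 122245487 to 122267215. It stood at 12.11 and 14.09 TPM in the 2 controls, against 19.94 TPM in anti-CD71 replicate 2. The treated library was above both controls, 1.52 times their mean, and the gap exceeded the one between the controls (log2 change 0.57, SE 0.13, 95% interval 0.25 to 0.90, limma adjusted p = 0.0815). Its main transcript, NM_008129, carried 98.3% of the TPM in that library and is not listed for replicate 1. The listed transcript, XM_030252423, was at 0.52, 0.4, 0.32 and 0.33 TPM in control 1, control 2, anti-CD71 1 and anti-CD71 2, and was too low to test.

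The catalytic subunit gene Gclc (chromosome 9, 77754535 to 77794489) stood at 13.77 and 14.63 TPM in the 2 controls, against 16.76 TPM in replicate 2. That is also above both controls but did not pass (log2 change 0.23, 95% interval -0.04 to 0.49, limma adjusted p = 0.256). Most of this difference came from XM_006510812, a predicted transcript at 0.58, 0 and 2.44 TPM, while the main transcript NM_010295 was at 13.19, 14.63 and 14.32 TPM. The ratio of Gclm to Gclc TPM was 0.879 and 0.963 in controls and 1.19 in replicate 2.

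Slc7a11, the cystine transporter gene on chromosome 3 from 50364936 to 50499087, stood at 23.68 and 21.54 TPM in the 2 controls, against 21.94 TPM in replicate 2, between the controls. Its log2 change was -0.04, with a 95% interval of -0.31 to 0.23. The predicted transcript XM_017319590 held 87.7%, 88.0% and 94.6% of its TPM in control 1, control 2 and replicate 2. The curated transcript NM_011990 was at 2.47 and 2.59 TPM in the 2 controls, against 1.18 TPM in replicate 2 (limma adjusted p = 0.338).

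Of the lipid repair and lipid substrate genes, Gpx4 and Acsl4 differed from the control mean by 0.05 or less on the log2 scale as whole genes, and none passed. Gpx4, the selenium-containing lipid peroxide reductase on chromosome 10 from 80047166 to 80056439, stood at 639.29 and 660.14 TPM in the 2 controls, against 672.39 TPM in replicate 2. The log2 change was 0.05, with a 95% interval of -0.11 to 0.20. Its most abundant transcript, NM_001367995, was listed for all 4 libraries, at 514.19 and 533.79 TPM in the 2 controls, against 510.0 and 583.21 TPM in anti-CD71 replicates 1 and 2. The 2 treated libraries fell on either side of the controls, and the log2 change was 0.06 (95% interval -0.16 to 0.27, limma adjusted p = 0.756). Without replicate 2 it was -0.04 and without replicate 1 it was 0.15.

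The second Gpx4 transcript was lower than both controls in replicate 2. NM_008162 stood at 124.04 and 125.43 TPM in the 2 controls, against 88.29 TPM in replicate 2, so its share of Gpx4 was 19.4% and 19.0% in controls and 13.1% in replicate 2. The log2 change was -0.49, and it did not pass over the 24122 transcripts tested (limma adjusted p = 0.157; 0.0497% passed). How reads were divided between a gene's transcripts was not given in the sources used here.

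Acsl4, the fatty acid ligase gene on the X chromosome from 142317993 to 142390802, stood at 44.71 and 41.72 TPM in the 2 controls, against 43.03 TPM in replicate 2, between the controls (log2 change -0.01, 95% interval -0.24 to 0.23). Its transcripts did not share this pattern. NM_001033600, which carried 24.9% and 24.0% of the gene's TPM in controls, was at 11.14 and 10.02 TPM in the 2 controls, against 6.37 and 7.83 TPM in anti-CD71 replicates 1 and 2. Both treated libraries lay below both controls, as did 29.1% of the 5765 transcripts tested over 4 libraries, and the change did not pass (log2 change -0.52, SE 0.15, 95% interval -0.91 to -0.12, limma adjusted p = 0.235). NM_019477, the main transcript, was at 24.21 and 24.87 TPM in the 2 controls, against 30.29 TPM in replicate 2 (log2 change 0.29, limma adjusted p = 0.313), and it is not listed for replicate 1. The share of Acsl4 carried by NM_019477 was 54.1% and 59.6% in controls and 70.4% in replicate 2.

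Aifm2, the coenzyme Q reductase gene on chromosome 10 from 61715263 to 61739260, stood at 28.62 and 27.75 TPM in the 2 controls, against 25.29 TPM in replicate 2. It was below both controls by a small margin that did not pass (log2 change -0.15, 95% interval -0.38 to 0.08, limma adjusted p = 0.361). Its main transcript NM_001039194 was at 15.71 and 15.77 TPM in the 2 controls, against 15.66 and 17.09 TPM in anti-CD71 replicates 1 and 2 (log2 change 0.05, limma adjusted p = 0.831). The lower gene total came from minor transcripts that are not listed for replicate 1, such as XM_011243572 at 3.83, 2.86 and 1.45 TPM. The 3 listed transcripts together went the other way, at 16.88 and 16.66 TPM in the 2 controls, against 18.56 and 18.13 TPM in anti-CD71 replicates 1 and 2. Of these, XM_006514121 was at 1.69 TPM in replicate 1 and at 0 in each complete library.

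**Figure D3:**
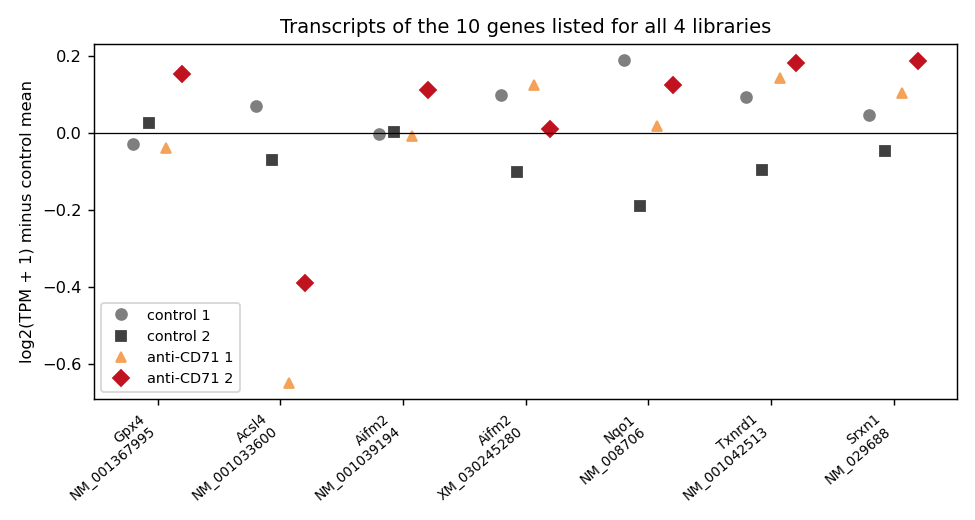
log2(TPM + 1) minus the control mean for the 7 transcripts of the 10 genes that are listed for all 4 libraries and passed the filter on low values, with 1 point per library. The Acsl4 transcript NM_001033600 is the one with both anti-CD71 points well below both controls, and the Txnrd1 and Srxn1 transcripts have both anti-CD71 points above both controls and under 0.2 from the control mean.

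Among the NRF2 target enzymes, the main transcripts of Txnrd1 and Srxn1 were above both controls in both treated libraries, by margins that did not pass. Txnrd1, the cytosolic thioredoxin reductase gene on chromosome 10 from 82833951 to 82897724, stood at 142.32 and 126.64 TPM in the 2 controls, against 167.84 TPM in replicate 2 (log2 change 0.32, SE 0.10, 95% interval 0.07 to 0.57, limma adjusted p = 0.136). NM_001042513, its most abundant transcript, was at 106.71 and 93.46 TPM in the 2 controls, against 110.4 and 113.59 TPM in anti-CD71 replicates 1 and 2. Both treated values were above both controls, as for 20.8% of the transcripts tested over 4 libraries, with a log2 change of 0.16 (95% interval -0.06 to 0.39, limma adjusted p = 0.41).

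The less abundant Txnrd1 transcripts differed more, in replicate 2 only as far as the files list them. NM_015762 was at 26.13 and 24.55 TPM in the 2 controls, against 39.48 TPM in replicate 2 (log2 change 0.62, SE 0.11, limma adjusted p = 0.17). NM_001042514 was at 7.82 and 7.78 TPM in the 2 controls, against 12.29 TPM in replicate 2 (log2 change 0.59, limma adjusted p = 0.236). In the GENCODE annotation of the same genome, NM_015762 and NM_001042513 start 27 bases before and 1 base after the start site whose upstream stretch is printed above. The nearest window to NM_001042514 is a different one, with no match to the core. The difference between transcripts was not tested.

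Srxn1, which encodes sulfiredoxin and restores overoxidised peroxiredoxins, lies on chromosome 2 from 152105524 to 152111376 and is fully listed. It stood at 89.75 and 83.97 TPM in the 2 controls, against 93.4 and 99.09 TPM in anti-CD71 replicates 1 and 2. Both treated values were above both controls, as for 28.3% of the 1563 genes tested over 4 libraries (31.1% had both below), and the log2 change was 0.15 (SE 0.07, 95% interval -0.04 to 0.33, limma adjusted p = 0.261; 4.29% of these genes passed). It was 0.10 without replicate 2 and 0.19 without replicate 1.

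Nqo1, the quinone reductase gene often used as a readout of NRF2, lies on chromosome 8 from 107388225 to 107403205. It stood at 15.77 and 11.88 TPM in the 2 controls, against 13.89 and 15.02 TPM in anti-CD71 replicates 1 and 2. Both treated values lay between the controls, which differed more from each other than in any other of the 10 genes (log2 change 0.07, 95% interval -0.28 to 0.43, limma adjusted p = 0.78).

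Nfe2l2 itself, on chromosome 2 from 75675513 to 75704663, stood at 105.9 and 111.75 TPM in the 2 controls, against 84.83 TPM in replicate 2. The treated library was below both controls, at 0.78 times their mean, by more than the controls differed (log2 change -0.36, SE 0.08, 95% interval -0.56 to -0.15, limma adjusted p = 0.0873). It is not listed for replicate 1. NRF2 is controlled largely through degradation of the protein, so the transcript does not measure its activity. Gclm and Txnrd1 lay above, and Nfe2l2 below, their control values in the same library.

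**Figure D4:**
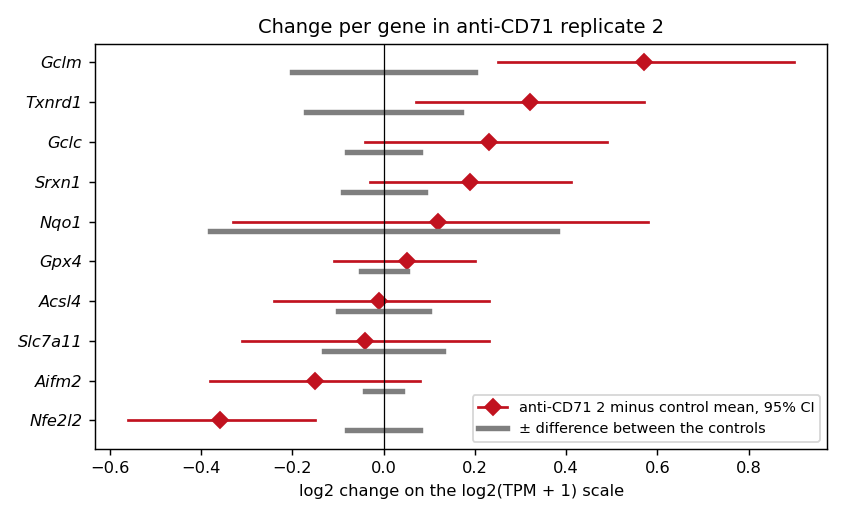
Difference in log2(TPM + 1) between anti-CD71 2 and the control mean for each gene (diamonds, with 95% limma intervals), with grey bars showing plus and minus the difference between the 2 controls. The intervals of Gclm, Txnrd1 and Nfe2l2 exclude 0 before adjustment, and those of the other 7 genes include it.

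The wider pathways held few changes that passed. Of 176 genes in 10 lists chosen for these pathways, 156 were tested in anti-CD71 replicate 2 against the controls, and 1 rose (Ptgs2) and 3 fell (Txnip, Scd2 and Ddit3) by limma, against 0.476% higher and 2.39% lower among all tested genes. That split of all calls, 57 higher and 286 lower, turned to 60 higher and 12 lower when genes with 1 TPM in a single library were admitted, and was 13 and 22 without the variance trend of limma. The main filter, at least 1 TPM in 2 libraries, could not admit a gene that reached 1 TPM only in the treated library. It could admit one that reached 1 TPM only in the 2 controls. The shares higher and lower among all tested genes are therefore not like for like. Of the 15 epidermis and hair markers, 0 were tested under it. The lists' median log2 change was -0.03. Of their tested genes 72 lay above 0 and 84 below, against 5822 above and 6160 below among all 11982 tested genes. None of the 4 passed with that wider filter, with no filter, or without the trend, all 4 passed with a pseudocount of 0.1, and Ddit3 and Scd2 did not pass with median scaling (adjusted p = 0.056 and 0.0599). In the same library, 11 of 12 macrophage, 10 of 10 T and natural killer cell and 5 of 5 erythroid markers tested lay below 0. So did 8 of 10 fibroblast and 6 of 7 endothelial markers. Above 0 lay 3 of 4 neutrophil, 4 of 6 squamous, 3 of 3 adipocyte and 6 of 7 skeletal muscle markers. Among the squamous markers, Krt18 had a log2 change of 0.42 and Sfn of 2.49. The part of all these markers in the pathway calls was not tested.

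Txnip, whose product binds and inhibits thioredoxin, had the largest drop in these lists. It stood at 84.19 and 82.4 TPM in the 2 controls, against 37.79 TPM in replicate 2 (log2 change -1.12, SE 0.08, limma adjusted p = 0.0127). Its transcript NM_001009935 is listed for all libraries, at 52.65 and 48.7 TPM in the 2 controls, against 21.01 and 22.15 TPM in anti-CD71 replicates 1 and 2. The 2 treated libraries were close to each other and below both controls (log2 change -1.19, SE 0.09, 95% interval -1.42 to -0.97), though over all transcripts the change did not pass (limma adjusted p = 0.0603; 0.0694% of transcripts passed). The same transcript was at -1.23 without replicate 2 and -1.16 without replicate 1. Where genes with 50% of their TPM listed were admitted to the comparison of 4 libraries, Txnip passed (log2 change -1.19, limma adjusted p = 0.0102).

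The other 12 thioredoxin and peroxiredoxin genes did not pass, 8 of them lying above 0. Txn1, the cytosolic thioredoxin gene, was at 686.98 and 614.44 TPM in the 2 controls, against 852.16 TPM in replicate 2 (limma adjusted p = 0.0803). Prdx1, a peroxiredoxin gene and NRF2 target, was at 598.17 and 612.98 TPM in the 2 controls, against 738.55 TPM in replicate 2 (log2 change 0.29, limma adjusted p = 0.0753), and at 660.54 TPM in replicate 1. Over the genes with listed TPM, Prdx1 did not pass with 4 libraries (log2 change 0.21, limma adjusted p = 0.159). Without replicate 1 its log2 change was 0.29, from the same libraries as the comparison over 3 libraries. Both genes are named after their values were seen, as neighbours of Txnrd1 and Srxn1 in function.

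In the list of stress transcripts reported in ferroptotic cells, 1 of 14 genes rose and 1 fell, and the median log2 change was -0.38. Ptgs2, the inducible cyclooxygenase gene, rose from 27.49 and 25.78 TPM to 58.26 TPM (log2 change 1.10, SE 0.09, limma adjusted p = 0.0197). Ddit3, which encodes the stress factor CHOP, fell to 41.92 TPM, against 66.69 and 77.32 TPM (log2 change -0.76, SE 0.11, limma adjusted p = 0.0474). Atf3 (log2 change -0.61, limma adjusted p = 0.0563), a stress-induced transcription factor gene, did not pass. Chac1, a glutathione-degrading enzyme gene widely used as a marker of this stress, was at 23.07 and 36.54 TPM in the 2 controls, against 20.25 TPM in replicate 2 (limma adjusted p = 0.306) and is likewise named after its values were seen. Ptgs2 and these genes are not listed for replicate 1, and Ptgs2 is also an inflammatory gene: the 11 neutrophil markers found summed to 69.0 and 87.9 TPM in the 2 controls, against 569.8 TPM in replicate 2, and their part in its rise was not tested. In replicate 2 that sum was mostly S100a8 (265.49 TPM) and S100a9 (212.99 TPM). In controls it was mostly Mmp9, at 51.94 and 76.33 TPM, which lay between the controls in replicate 2 (59.62 TPM). Of the 4 neutrophil markers tested, 3 had a log2 change above 0 and 1 below. The listed part of S100a9 was at 3.67 and 0.0 TPM in controls, 142.39 TPM in replicate 1 and 183.5 TPM in replicate 2. That of Cxcr2 was at 0.0 TPM in both controls, 1.16 TPM in replicate 1 and 1.5 TPM in replicate 2. That of Csf3r was at 0.83 and 1.34 TPM in controls, 0.68 TPM in replicate 1 and 1.09 TPM in replicate 2. Ltf and Elane, also listed, were at or under 0.3 TPM in every library.

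In the lipid list 1 of 20 tested genes fell in replicate 2, 16 lay below 0 and the median log2 change was -0.19. Scd2, a desaturase gene that makes monounsaturated fatty acids, fell to 162.69 TPM, against 225.21 and 240.99 TPM (log2 change -0.52, SE 0.08, limma adjusted p = 0.0474). Alox5ap, the partner of 5-lipoxygenase in leukocytes, was the 1 gene of 27 tested over 4 libraries that fell, and none rose (3.45% of the genes tested there fell and 0.832% rose): its listed transcript stood at 184.51 and 214.49 TPM in the 2 controls, against 144.4 and 137.78 TPM in anti-CD71 replicates 1 and 2 (log2 change -0.49, SE 0.09, limma adjusted p = 0.0492). That call was lost when any single library was left out and under every other alternative (adjusted p from 0.0503 to 0.343), with the log2 change between -0.60 and -0.39, and over 3 libraries the adjusted p was 0.0779. Alox5ap fell beside the macrophage markers, of which the 4 with most of their TPM listed summed to 490.5 and 542.8 TPM in the 2 controls, against 337.3 and 325.5 TPM in the treated libraries, and their part in it was not tested.

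In the other 7 lists no gene passed the comparison over 3 libraries or that over 4. In the glutathione list (0 of 14) Glrx2, a mitochondrial glutaredoxin gene, was at a log2 change of 0.50 (limma adjusted p = 0.0524), and Cth, which makes cysteine from cystathionine, was at -0.75 (limma adjusted p = 0.0811). In the detoxification and NADPH list (0 of 27, 18 below 0) Me1, encoding malic enzyme, was at 0.54 (0.25 for its main transcript NM_008615, with the predicted XM_011242666 at 0, 0 and 8.02 TPM) and Osgin1, an oxidative stress-induced growth inhibitor gene, at -0.72. Hmox1, the haem oxygenase gene and an NRF2 target, was at 110.95 and 191.24 TPM in the 2 controls, against 195.03 TPM in replicate 2, so the controls already spanned most of that range (limma adjusted p = 0.447; named after its values were seen). In the list of NRF2 regulators (0 of 16) Cul3, the scaffold of the ligase that degrades NRF2, was at 0.33, and Keap1, its NRF2-binding adaptor, stood at 38.8 and 38.76 TPM in the 2 controls, against 35.15 TPM in replicate 2 (named after its values were seen).

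Among other peroxidases and dismutases (0 of 7), Sod3 and Sod2, the extracellular and mitochondrial superoxide dismutase genes, were at 0.43 and 0.34. In the quinone, pterin and sterol list (0 of 20, median 0.00) Pdss1, which makes the coenzyme Q tail, was at 0.43. In the iron list (0 of 17) Tfrc, which encodes the antibody's target, stood at 44.11 and 36.16 TPM in the 2 controls, against 29.0 TPM in replicate 2 (limma adjusted p = 0.141). Its minor transcript NM_001357298, listed for all libraries, was at 3.12 and 2.64 TPM in the 2 controls, against 0.66 and 0.62 TPM in anti-CD71 replicates 1 and 2. Both treated values were below both controls, as for 29.1% of transcripts tested over 4 libraries, and it did not pass (log2 change -1.24, limma adjusted p = 0.154). In the same list Hfe was at -0.55 and the haem exporter gene Flvcr1 at 0.55. In the selenium list (0 of 15) the selenoprotein genes Selenot and Selenof were at 0.46 and 0.30. Selenof, fully listed, was at 450.63 and 458.84 TPM in the 2 controls, against 486.09 and 558.28 TPM in anti-CD71 replicates 1 and 2 (log2 change 0.20, limma adjusted p = 0.198 over 4 libraries). The Selenof change was 0.10 without replicate 2 and 0.30 without replicate 1. The latter has the same libraries and value as the comparison over 3 libraries, in which Selenof did not pass.

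**Figure D5:**
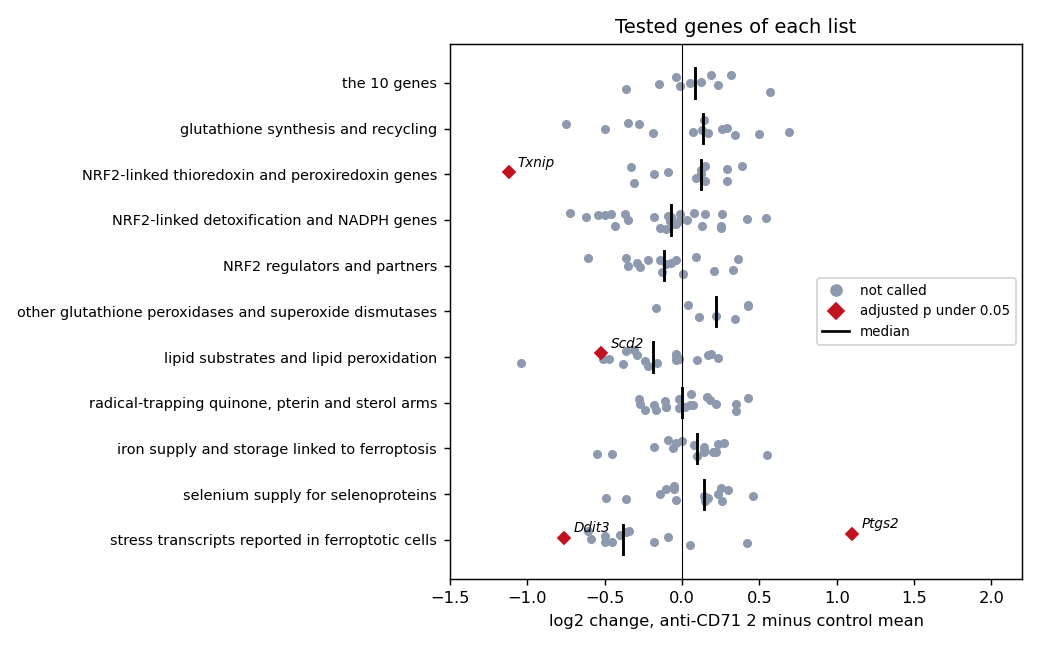
log2 change in anti-CD71 2 against the control mean for each tested gene of the 10 genes and of the 10 pathway lists, with black bars at list medians and red diamonds for genes with an adjusted p under 0.05. Ptgs2 is the single red point above 0, and Txnip, Ddit3 and Scd2 are those below.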

How the data were processed

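The authors deposited TPM per RefSeq transcript, written to 2 decimals. Per the submitters' processing notes the build was GRCm38.p6. Neither the aligner nor the TPM program was given in the sources used here. Gene symbols were looked up in RefSeq's table for this build, which matched 58425 of 59881 transcripts. Transcripts without a symbol held 1.421% to 1.552% of each complete library and were not used.

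limma 3.58.1 in R 4.3.3 with a variance trend was run on log2(TPM + 1), over features with at least 1 TPM in 2 libraries, and p-values were Benjamini-Hochberg adjusted over all features tested. Genes entered the 4-library fit when listed transcripts carried at least 90% of their TPM. The lone treated library in the 3-library fit is assumed to vary like the controls. The fits were tested on simulated data in which treated libraries had the spread of the controls, so this could not check that assumption. Transcripts over 3 libraries were a comparison added after the files were seen. The 10 genes and the lists were chosen with earlier results of these data known. Named list genes are those called (at most 4 per list and direction) or, in lists without a call, the 2 with the smallest p, plus Tfrc; 1 gene that this rule names is not reported here. Alternatives changed the pseudocount, filter, scaling, variance trend, replicate block and libraries.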

Additional observations from a re-analysis of the deposited data

How the results depend on the processing

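Under every alternative that gave a test, 0 of the 10 genes and 0 of their transcripts passed. The smallest adjusted p among the 10 genes over 3 libraries ran from 0.0751 (median scaling) to 0.22 (no filter), and the number with an unadjusted p under 0.05 ran from 1 (no filter) to 4 (median scaling), against 3 as reported. Gclm (0.47 to 0.68), Txnrd1 (0.18 to 0.40) and Nfe2l2 (-0.39 to -0.31) kept their direction in all alternatives over 3 libraries. The directions that turned over 3 libraries were those of Slc7a11 (0.00 with median scaling, 0.06 by its highest transcript, 0.03 without control replicate 1), Acsl4 (0.04, 0.29 and 0.04 in the same settings), Aifm2 (0.11 by its highest transcript) and Nqo1 (-0.07 without control replicate 2). Over 4 libraries, with each library left out in turn, Nqo1 and its transcript NM_008706 ran from -0.12 (without control replicate 2) to 0.26 (without control replicate 1), NM_001367995 of Gpx4 from -0.04 to 0.15 and XM_030245280 of Aifm2 from -0.03 to 0.17. NM_001039194 of Aifm2 was at -0.01 without anti-CD71 replicate 2 and 0.11 without anti-CD71 replicate 1.

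The 4 calls in the pathway lists over 3 libraries became 0 with a filter of 1 TPM in 1 library, 0 with no filter, 2 with median scaling and 0 without the variance trend. The 1 call over 4 libraries became 0 with a pseudocount of 0.1, with either other filter, with median scaling, without the trend and with the replicate block. With genes listed to 50% it was 1 other gene (Txnip). Without anti-CD71 replicate 1, the log2 changes of Prdx1, Selenof and Sat1 were 0.29, 0.30 and -0.36, as in the comparison over 3 libraries, in which these genes did not pass. Over all genes, 343 calls over 3 libraries became 72 (filter of 1 TPM in 1 library; 60 higher, 12 lower), 0 (no filter; limma gave 3401 an unadjusted p under 0.05), 225 (median scaling) and 35 (no trend; 13 higher, 22 lower). The 67 calls over 4 libraries (13 higher, 54 lower) became 8, 1 and 4 under the filters and without the trend, and 21 higher and 36 lower with median scaling. They became 3 with the replicate block and ran from 1 (without control replicate 1) to 96 (without anti-CD71 replicate 1) when each library was left out. The 4 transcript calls became 0 with a pseudocount of 0.1, with no filter and with the replicate block (limma gave 871 an unadjusted p under 0.05), and ran from 0 (without anti-CD71 replicate 2) to 1 when each library was left out. The cause was not tested.

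The correlation of same-numbered deviations was -0.006 over the 1563 genes. The labels do not say whether a replicate number marks a shared batch, and 1 correlation cannot decide it. No block was possible over 3 libraries. Leaving out a control there leaves 1 library against 1, a value with no test. Depth is unknown. Standard errors over 3 libraries rest on the controls, whose log2 difference had an SD of 0.222 over the 1563 genes, against 0.294 between the treated libraries.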
